A study of Homo sapiens and Mus musculus with 57 samples.

Results

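Colo205 is a human colorectal carcinoma line, and its response to TAK-981 is described here over every gene that could be tested. TAK-981 inhibits the SUMO-activating enzyme, the heterodimer of SAE1 and UBA2. The treated group held 3 libraries of Colo205 cells kept for 16 h with 1 µM TAK-981, and the control group held 3 libraries kept for the same 16 h with the vehicle DMSO. These are 6 of the 57 libraries of the series, which covers 8 human and mouse tumour lines. All genes that passed a low-count filter in these 6 libraries were taken, which left 13895 of the 30373 rows of a human table. Colo205 also received ML-792, another inhibitor of the same enzyme, at 1 µM for 16 h (3 libraries, the same DMSO libraries). The same TAK-981 and DMSO treatments were given to HCT116, another colorectal carcinoma line, and to MDA-MB-231, a line from a breast carcinoma, with 3 libraries a group. The labels name no transgene, knockout or clone, and they do not say whether replicates were cultured separately. The p-values therefore refer to the spread among these libraries alone, and that spread may be technical.

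SUMO proteins are small modifiers that are joined to lysines of other proteins. The SAE1 and UBA2 enzyme activates them, E3 ligases such as the PIAS proteins direct them, and SENP proteases remove them. Many targets are transcription factors and chromatin proteins, and SUMO conjugation is best known for holding transcription down, for silencing repeated elements and innate immune genes, and for supporting chromosome segregation.

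The 6 libraries held 18229679 to 21537052 counts each, in 16770 to 17437 genes with at least 1 count. The first principal component took 73.5% of the variance and placed all 3 TAK-981 libraries apart from all 3 DMSO libraries. Levels are given as CPM (counts scaled to a common library size with TMM factors), or as the authors' FPKM where genes are compared with each other. Most epithelial markers were abundant: in the DMSO libraries KRT8 averaged 1850 FPKM, KRT18 1340 FPKM, EPCAM 597 FPKM, the intestinal galectin LGALS4 303 FPKM and the brush border protein VIL1 143 FPKM. The intestinal marker CDX2 was low there at 0.296 FPKM, and KRT20 at 2.62 to 2.81 CPM. All 4 of COL1A2, COL3A1, DCN and VIM were at 0 counts in all 6 libraries, and the 4 endothelial markers summed to at most 0.0375 FPKM in any library. Of the 8 leukocyte markers PTPRC, CD3E, CD79A, ITGAM and SPI1 did not pass the filter, whereas LYZ (1190 FPKM in DMSO, 1080 FPKM with TAK-981) and CD68 (151 and 166 FPKM) were abundant in both groups. Mitochondrially encoded genes took 6.16 to 6.56% of the counts in DMSO and 6.89 to 6.96% with TAK-981. The means of 6.34% ± 0.204 and 6.94% ± 0.0373 (SD, n = 3 each) gave p = 0.1 in an exact two-sided permutation test, the smallest p that 3 against 3 libraries allow, and the part of this shift in the results below was not tested.

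TAK-981 changed a large share of the transcriptome by small amounts and a small set of genes by a great deal, mainly upward. With edgeR's quasi-likelihood test, the replicate number as a block and an adjusted p under 0.05 (called from here on), 3006 genes rose (21.6% of those tested) and 3162 fell (22.8%). Among the rises the median change was 0.37 on the log2 scale and among the falls 0.28. A change of at least 2-fold was reached by 410 rises (2.95%) and 169 falls (1.22%). The median over all genes was -0.000151, so that rises and falls are counted around a centre near 0. DESeq2 on the same genes called 1848 rises and 1917 falls.

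**Figure D1:**
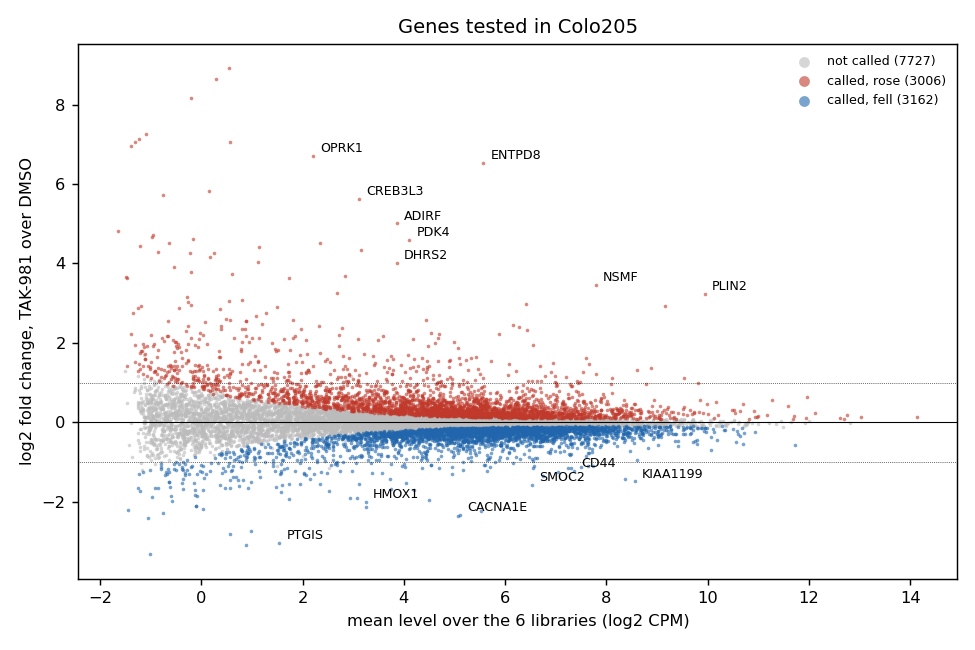
Each point is a gene tested in Colo205, with its mean level over the 6 libraries (log2 CPM) on the horizontal axis and its log2 fold change with TAK-981 on the vertical axis; dotted lines mark 2-fold. Called genes are red (3006 rises) or blue (3162 falls), and the largest changes lie on the side of the rises, ENTPD8 and CREB3L3 among them.

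The balance of rises and falls differed with the level of a gene in untreated cells. Among the 2238 genes over 100 CPM in DMSO, 886 fell (39.6%) and 451 rose (20.2%), and 11 of them rose and 13 fell by at least 2-fold. Among the 2930 genes between 5 and 20 CPM the order was the other way, with 712 rises and 510 falls. The 331 genes at or under 0.5 CPM in DMSO held 142 of the 2-fold rises and 0 falls, but many such genes passed the filter through the treated libraries alone: 103 tested genes had under 10 counts in every DMSO library, and they held 89 of the 410 2-fold rises.

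Both subunits of the enzyme that TAK-981 inhibits were expressed and changed little. UBA2 stood at 185, 178 and 185 CPM in DMSO and at 165, 165 and 163 CPM with TAK-981, a fall of 0.15 on the log2 scale (SE 0.038, adjusted p = 0.00443). SAE1 stood at 214, 214 and 214 CPM in DMSO and at 190, 206 and 194 CPM with TAK-981, -0.13 on the log2 scale (SE 0.039, adjusted p = 0.0163). In both genes all 3 treated libraries lay below all 3 controls, as in 3540 of the 13895 genes tested. The fall of SAE1 lost its call in 8 of 15 alternative fits (adjusted p from 0.000953 to 0.132) and that of UBA2 in 1, without replicate 3 (0.000437 to 0.0674).

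Among called genes with separate groups and 5 CPM or more in 1 group, the 25 largest rises named here ran from 2.16 to 6.70 on the log2 scale, and one of the largest was that of ENTPD8, an ectonucleotidase of the cell surface that is found in intestine and liver. It measured 1.18, 1.06 and 0.778 CPM in the DMSO libraries and 88.0, 103 and 89.8 CPM in the TAK-981 libraries, a change of 6.54 on the log2 scale (SE 0.095, adjusted p = 4.155e-17). CREB3L3, a membrane-bound transcription factor of liver and intestine that acts on lipid genes, went from 0.614, 0.184 and 0.243 CPM to 17.6, 17.4 and 16.2 CPM (5.62, SE 0.203). ADIRF, a factor first described in fat cells, went from 0.920, 0.875 and 0.827 CPM to 25.9, 31.5 and 27.6 CPM (5.01, SE 0.122). In these genes the lowest treated library was far above the highest control. OPRK1, the kappa opioid receptor, had the highest fitted change of these 25 (6.70, SE 0.284), but it rested on 5 counts over the DMSO libraries: it was at 0.102, 0.0921 and 0.0486 CPM in DMSO and at 9.79, 6.81 and 10.8 CPM with TAK-981.

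PDK4, a kinase that switches off pyruvate dehydrogenase, rose from 1.38, 1.47 and 1.22 CPM to 34.0, 31.9 and 33.2 CPM (4.596, SE 0.107). PLIN2, the coat protein of lipid droplets, was already abundant at 195, 183 and 186 CPM and reached 1808, 1693 and 1831 CPM (3.24, SE 0.039), and it had the smallest adjusted p of these genes (1.006e-17). The control libraries of these genes were close together. Their separation from the treated ones was required by the rule for the largest rises. ABCA1, which exports cholesterol from cells, rose by 2.57 (SE 0.086).

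Other rises of this size fell into several functions. DHRS2, a short-chain dehydrogenase, went from 1.48, 2.07 and 1.51 CPM to 23.3, 33.2 and 25.4 CPM (4.01, SE 0.106). KIAA1551 (RESF1), a silencing factor of retroelements, went from 15.3, 21.1 and 20.8 CPM to 143, 161 and 150 CPM (2.99, SE 0.062). H19, an imprinted noncoding RNA, went from 31.1, 26.7 and 27.5 CPM to 145, 142 and 143 CPM (2.34, SE 0.051). All 3 were separated between the groups with no overlap, as the rule for the 25 largest rises required. Further members of the 25 largest rises were NEURL1B (3.68), a ubiquitin ligase for Notch ligands, RHOBTB1 (3.64, from 0.389 to 0.553 CPM in DMSO to 5.16 to 7.71 CPM), CMPK2 (3.25), ISM1 (2.59), GULP1 (2.45), HAS2 (2.38), which makes hyaluronan, PLXNB3 (2.25), ATHL1 (PGGHG, 2.23), ZNF850 (2.20), PAPLN (2.17) and TNFSF9 (2.16), the ligand of the T cell receptor 4-1BB. Of the genes that averaged 100 CPM or more over the 6 libraries, the flippase ATP9A (1.63), the sugar transporter SLC2A12 (1.504), ANXA1 (1.46), the transcription factor FOXQ1 (1.43) and BMP4 (1.37) were, with NSMF and PLIN2, among the 8 that rose most.

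**Figure D2:**
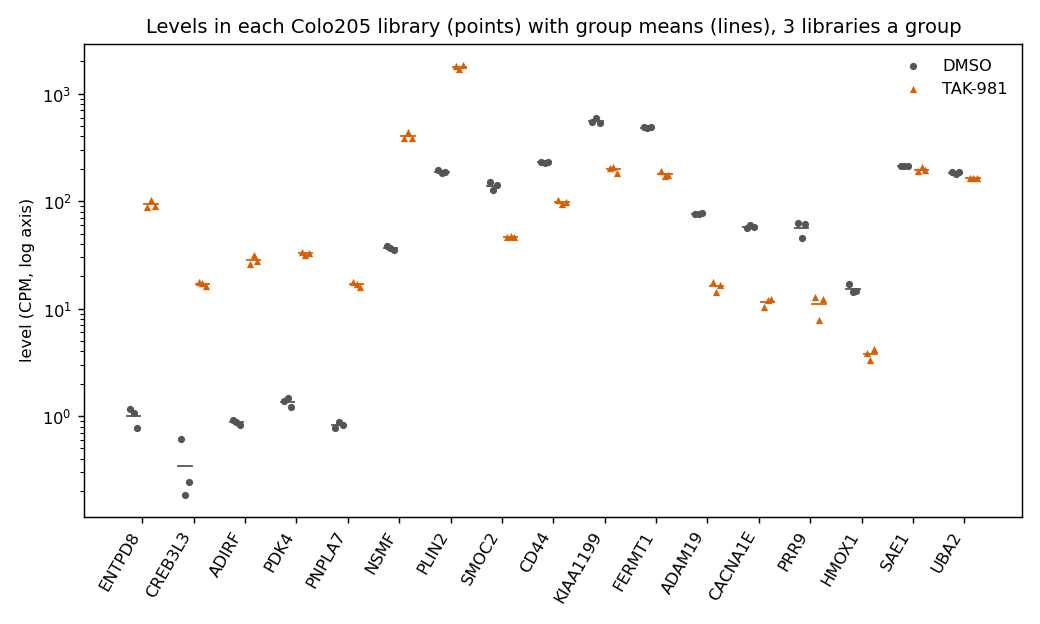
Points give the level (CPM, log axis) of 17 genes in each of the 3 DMSO libraries (circles) and 3 TAK-981 libraries (triangles) of Colo205, and lines give group means. The groups of the genes to the left of SMOC2 are separated upward and those from SMOC2 to HMOX1 downward; SAE1 and UBA2 lie a little lower with TAK-981, UBA2 at 163 to 165 CPM.

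A run of the largest rises lie side by side. In the RefSeq order of genes on chromosome 9, ENTPD8, NSMF and PNPLA7 follow each other directly among the genes tested here. NSMF, named for its part in signalling from synapse to nucleus, went from 38.2, 36.4 and 35.5 CPM to 389, 441 and 384 CPM (3.46, SE 0.050), and PNPLA7, a lysophospholipase, from 0.767, 0.875 and 0.827 CPM to 17.8, 16.96 and 16.1 CPM (4.35, SE 0.143). On the near side of ENTPD8, NRARP, a feedback regulator of Notch signalling, rose by 2.34 (SE 0.188), EXD3 by 0.77 and NOXA1 by 0.83, and the next gene outward, TOR4A, was not called (0.16, adjusted p = 0.0990). On the far side of PNPLA7, MRPL41 rose by 0.27 and WDR85 was not called (-0.00250, adjusted p = 0.980). NSMF changed by 0.01 in HCT116 and -0.08 in MDA-MB-231, and PNPLA7 by 0.04 and 0.29, none of them called. Reads of overlapping or read-through transcripts of these neighbours cannot be told apart here, and it is not stated whether the authors counted by strand.

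**Figure D3:**
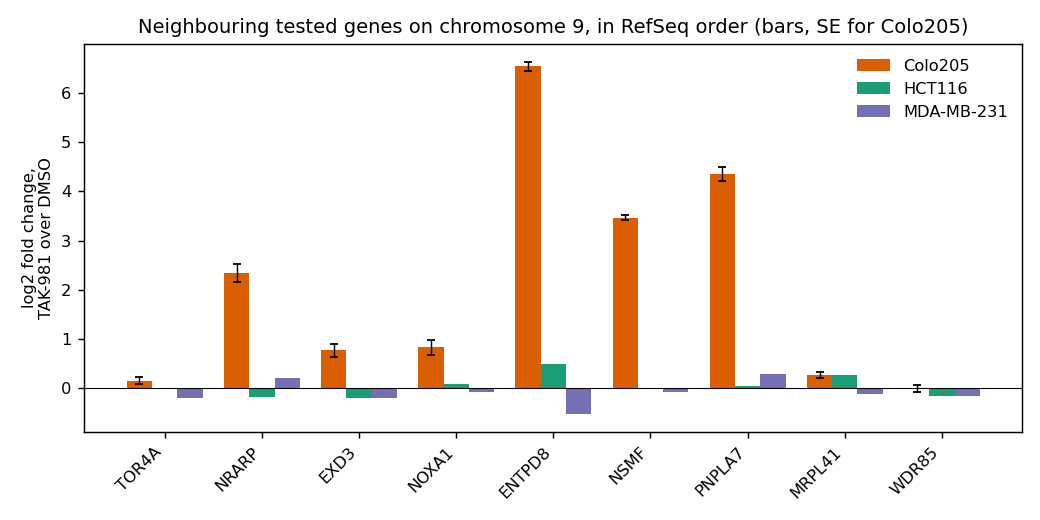
Bars give the log2 fold change with TAK-981 of 9 neighbouring tested genes on chromosome 9, in RefSeq order, in Colo205 (with SE), HCT116 and MDA-MB-231. The rise runs from NRARP to PNPLA7 in Colo205 (2.34 for NRARP, 6.54 for ENTPD8, 4.35 for PNPLA7) and ends at MRPL41 (0.27), while no change of these genes was called in the other lines.

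The falls were smaller than the rises: the 25 largest named here ran from -3.03 to -1.29 on the log2 scale. PTGIS, prostacyclin synthase, went from 5.06, 5.20 and 5.25 CPM to 0.603, 0.494 and 0.781 CPM (-3.03, SE 0.227). CACNA1E, a subunit of a neuronal calcium channel, went from 56.2, 59.9 and 57.5 CPM to 10.4, 11.9 and 12.4 CPM (-2.33, SE 0.063). ADAM19, a membrane metalloprotease, went from 75.4, 76.1 and 77.4 CPM to 17.6, 14.2 and 16.6 CPM (-2.24, SE 0.064). In each of these genes every treated library was below every control, as the rule for naming these 25 required. PRR9 (-2.35), the ciliary dynein DNAH9 (-2.12), HMOX1 (-1.99), UNC93A (-1.96), MYH4 (-1.92), the transcription factors RUNX3 (-1.90) and SPDEF (-1.90), CALML3 (-1.70) and TNFSF4 (-1.67), the OX40 ligand, followed.

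The 8 largest falls among genes that averaged 100 CPM or more had several functions. KIAA1199 (CEMIP), which takes part in the breakdown of hyaluronan, went from 541, 591 and 529 CPM to 204, 207 and 182 CPM (-1.49, SE 0.039). FERMT1, kindlin-1, which activates integrins, went from 490, 475 and 486 CPM to 190, 172 and 176 CPM (-1.43, SE 0.038). CD44, the hyaluronan receptor, went from 231, 228 and 230 CPM to 102, 94.96 and 97.9 CPM (-1.22, SE 0.040). The groups of these genes did not overlap, which the rule for the 25 largest falls required of KIAA1199 and FERMT1. SPNS2, which exports sphingosine 1-phosphate (-1.36), the drug efflux pump ABCC1 (-1.26), TRERF1 (-1.16), the integrin subunit ITGA2 (-1.16) and DDIT4 (-1.11) made up the rest of these 8. Lower in level, the urokinase PLAU fell by 1.56, the carbonic anhydrase CA12 by 1.52, the decoy receptor TNFRSF10C by 1.43, NOS2 by 1.43 and the sialyltransferase ST6GALNAC1 by 1.31.

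The 37 gene lists held 706 memberships among the genes tested, and their counts are read beside the 21.6% of all genes that rose and the 22.8% that fell. Lists were not tested as sets. Over all 13895 genes tested, all 3 treated libraries lay above all 3 controls in 3475 and below them in 3540. Separate groups were thus common outside the lists too. Most members below were named for a small adjusted p, which favours separate groups, and some belong to the 25 largest rises or falls, which required it.

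**Figure D4:**
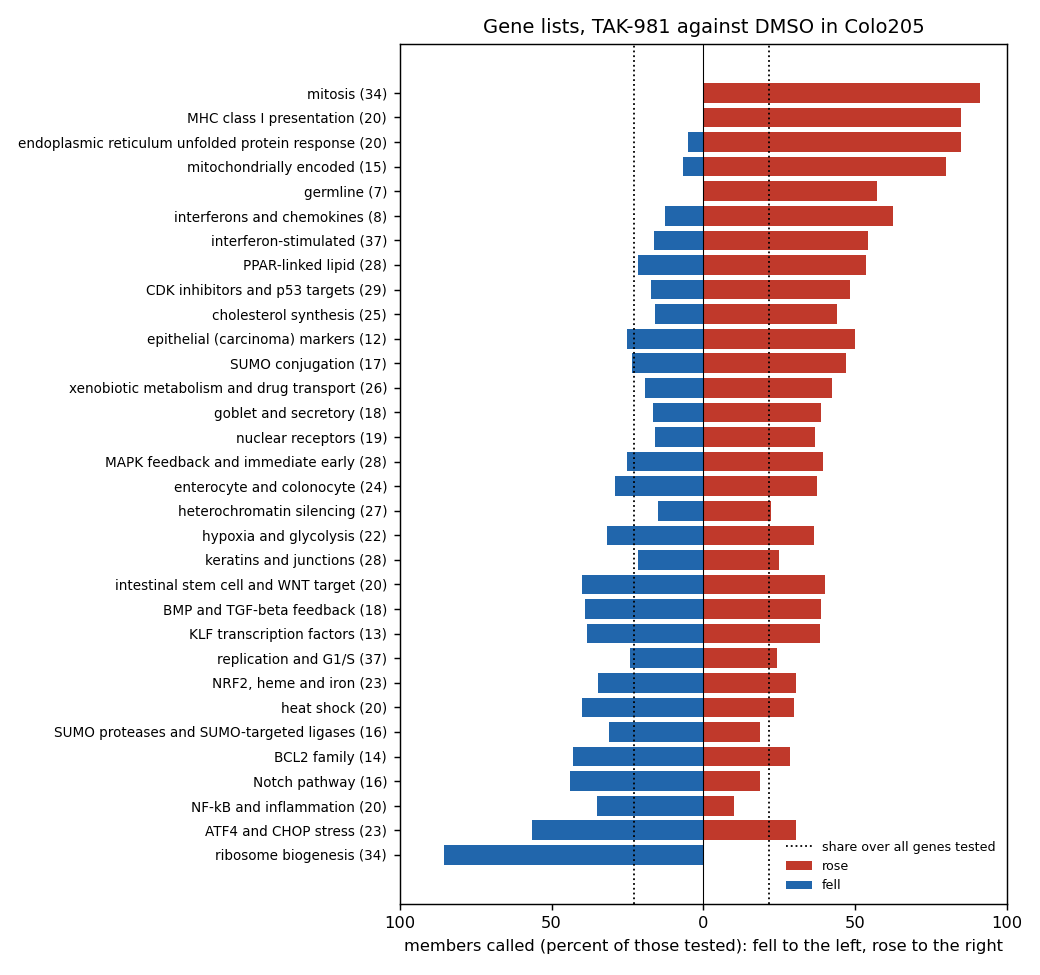
Bars give, for each gene list with at least 7 tested members (number in brackets), the percent of members that rose (right) and fell (left) with TAK-981 in Colo205, and dotted lines give the shares over all genes tested (21.6% rose, 22.8% fell). Mitosis (91.2% rose) is at the top and ribosome biogenesis (85.3% fell) at the bottom.

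Among the 17 SUMO conjugation genes tested, 8 rose and 4 fell (median 0.15). The modifiers themselves rose: SUMO3 went from 73.4, 67.6 and 71.1 CPM to 121, 121 and 124 CPM (0.78, SE 0.044), and SUMO2 from 190, 184 and 206 CPM to 301, 298 and 311 CPM (0.65, SE 0.038). In both, all treated libraries were above all controls. The E3 ligases TOPORS (0.43) and PIAS2 (0.52) rose and PIAS3 fell (-0.55). Without replicate 1 of both groups 4 members rose, and 5 rose with DESeq2, without replicate 3 of both groups, or without DMSO replicate 1 or 3 or TAK-981 replicate 1 or 2 alone. The falls numbered 1 without replicate 3 of both groups and 2 with DESeq2, without replicate 1 of both groups, any DMSO library, or TAK-981 replicate 1 or 3. Of 16 SUMO proteases and SUMO-targeted ubiquitin ligases 3 rose and 5 fell (median 0.02), with the deSUMOylating isopeptidases DESI1 (-0.43) and DESI2 (-0.25) among the falls and RNF111 (0.38), a ligase that reads SUMO chains, among the rises. SENP1 (-0.17) and SENP5 (0.19) lost their calls in 6 and 7 of the 15 alternatives, and the count of falls was 2 with DESeq2 and without DMSO replicate 3 or TAK-981 replicate 1, and 3 on FPKM values, without any other single library or without replicate 1 or 3 of both groups. Only 1 rise was called with DESeq2, on FPKM values, or without DMSO replicate 3, TAK-981 replicate 1 or 3, or replicate 1 or 3 of both groups.

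PPAR-linked lipid genes, the targets of the fatty acid receptors of the PPAR family, rose in 15 of 28 cases (53.6%) and fell in 6 (median 0.20). Beside PDK4 and PLIN2 these included ACSL1, which activates long-chain fatty acids (112, 102 and 113 CPM to 290, 229 and 272 CPM; 1.27, SE 0.044), and ACAA2, a thiolase of mitochondrial fatty acid oxidation (65.0, 64.9 and 64.4 CPM to 135, 130 and 138 CPM; 1.05, SE 0.043). Their groups did not overlap. The members that fell included receptors of the family, chosen here after their values were seen: PPARG went from 69.3, 65.2 and 66.6 CPM to 37.4, 34.8 and 37.8 CPM (-0.87, SE 0.050) and PPARA changed by -0.25 (SE 0.062, adjusted p = 0.00340). With DESeq2 the falls numbered 3. In HCT116, where 9.01% of 16355 genes rose and 9.61% fell, 4 of the 28 rose and 3 fell. In MDA-MB-231, where 4.66% rose and 4.66% fell, 7 of the 28 rose and 3 fell.

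Cholesterol synthesis genes rose in 11 of 25 cases and fell in 4 (median 0.11). INSIG1, the sterol-sensing anchor of the SREBP pathway, went from 66.2, 52.3 and 63.3 CPM to 138, 102 and 135 CPM (1.04, SE 0.045), and replicate 2 was the lowest library of both groups. HMGCS1 (0.57), MSMO1 (0.51) and STARD4 (0.47) also rose. The falls numbered 2 without the block, without any single library except DMSO replicate 2, and without replicate 1 or 3 of both groups.

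Mitosis genes rose almost as a block. Of the 34 tested, 31 rose (91.2%) and 0 fell, with a median of 0.40, and the largest change was 0.98, so that none reached 2-fold. KIF20A, a kinesin of the spindle midzone, went from 22.0, 26.2 and 21.1 CPM to 45.5, 45.8 and 44.96 CPM (0.98, SE 0.063). ASPM, which acts at spindle poles, went from 103, 112 and 112 CPM to 212, 194 and 208 CPM (0.91, SE 0.047), and CCNB1, cyclin B1, from 118, 117 and 124 CPM to 188, 178 and 187 CPM (0.62, SE 0.039). No treated library of these genes overlapped a control. ANLN (0.67) of the contractile ring and the centromere motor CENPE (0.63) rose too. In HCT116 27 of the 34 rose, beside 9.01% of all genes. In MDA-MB-231 1 rose and 1 fell, near the 4.66% of all genes each way. Replication and G1/S genes showed no such direction: 9 of 37 rose, among them MCM7 (0.45), CCNE2 (0.50) and CDC6 (0.33), and 9 fell, among them MCM5 (-0.38) and MCM6 (-0.31), with a median of 0.00185. Leaving out DMSO replicate 3 left 5 rises and 4 falls in that list, leaving out replicate 3 of both groups the same, DESeq2 5 rises, and leaving out TAK-981 replicate 1 or 3 left 5 and 4 falls.

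Many genes of the late cell cycle share a short promoter element, the cell cycle genes homology region. A promoter sequence was at hand for 29 of the 34 mitosis genes. The letters TTTGAA, on either strand, were found in the 250 bases before an annotated start of 18 of them (62.1%). The share was 12.0% of all tested genes with a promoter and 16.1% of all genes of the table. Here and for the elements below, a gene with several promoter sequences counted if any held the letters, and a sequence with them is printed. Of the 18 members with the letters 17 rose (median 0.44), and of the 11 without 9 rose (median 0.35). The promoters of CENPA, the centromeric histone (15.6, 13.4 and 14.3 CPM to 27.6, 28.8 and 27.2 CPM; 0.95, SE 0.072), and of ASPM are shown because both genes were among the strongest rises of the list. They are RefSeq sequences of GRCh38.p14, CENPA at chr2:26785806-26786055 on the plus strand and ASPM at chr1:197146670-197146919 on the minus strand, and capitals mark the element (TTTGAA or its reverse complement).
CENPA: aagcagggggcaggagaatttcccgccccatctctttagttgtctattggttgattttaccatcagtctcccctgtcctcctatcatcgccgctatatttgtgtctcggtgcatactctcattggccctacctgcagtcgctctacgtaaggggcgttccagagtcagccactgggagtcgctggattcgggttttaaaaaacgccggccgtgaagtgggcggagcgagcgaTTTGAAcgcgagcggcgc
ASPM: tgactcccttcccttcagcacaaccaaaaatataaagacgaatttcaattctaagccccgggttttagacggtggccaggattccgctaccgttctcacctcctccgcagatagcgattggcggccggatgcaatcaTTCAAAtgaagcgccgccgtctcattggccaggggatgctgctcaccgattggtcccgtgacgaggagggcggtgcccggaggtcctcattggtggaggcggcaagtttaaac
A match gives the letters alone and says nothing of whether a factor bound there.

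CDK inhibitors and p53 targets rose in 14 of 29 cases and fell in 5 (median 0.13). CDKN1C, an inhibitor of cyclin-dependent kinases, went from 1.79, 0.875 and 0.875 CPM to 5.24, 5.38 and 4.39 CPM (2.10, SE 0.225), and PLK2 (1.07), CDKN2C (0.93), GDF15 (0.71) and MDM2 (0.41) rose. The falls numbered 3 with DESeq2 and without DMSO replicate 1, TAK-981 replicate 1 or 3, or replicate 1 or 3 of both groups.

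Ribosome biogenesis genes fell together. Of 34 tested, 29 fell (85.3%) and 0 rose (median -0.28), within a range of -0.57 to -0.01. DKC1, the pseudouridine synthase of box H/ACA particles, went from 262, 266 and 262 CPM to 175, 177 and 179 CPM (-0.57, SE 0.037). DDX21, a nucleolar helicase, went from 422, 451 and 455 CPM to 295, 324 and 304 CPM (-0.52, SE 0.037). Neither gene had overlapping groups. RRP12 (-0.49), NOLC1 (-0.45) and WDR43 (-0.41) fell as well. In HCT116 12 of the 34 fell and 1 rose, beside 9.61% and 9.01% of all genes. In MDA-MB-231 0 fell and 2 rose, beside 4.66% of all genes each way.

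Endoplasmic reticulum unfolded protein response genes rose in 17 of 20 cases (85.0%) and fell in 1, with a median of 0.37. HSPA5, the chaperone BiP, is the most abundant of the genes named from this list: it went from 3408, 2830 and 3120 CPM to 5154, 4350 and 5062 CPM (0.64, SE 0.035, adjusted p = 7.204e-10). MANF, a secreted stress factor, went from 129, 111 and 121 CPM to 192, 165 and 196 CPM (0.62, SE 0.041). In both genes replicate 2 was the lowest library of its group, and all treated libraries were above all controls. PDIA4 (0.51), HSP90B1 (0.42) and HERPUD1 (0.40) rose too. The single fall was not called without DMSO replicate 2 or 3 or TAK-981 replicate 1. The promoter element known for this response, ERSE, was searched as CCAAT and CCACG with 9 bases between them, on both strands, in the same 250 bases. It was found in 5 of the 20 members and in 0.155% of the tested genes with a promoter (0.0916% of all genes). The 5 were HSPA5, HSP90B1, PDIA6, CRELD2 and XBP1, of which XBP1 was not called (0.03). The HSPA5 promoter (chr9:125241344-125241593, minus strand, GRCh38.p14, RefSeq), the best known of this kind, is printed with the element in capitals.
HSPA5: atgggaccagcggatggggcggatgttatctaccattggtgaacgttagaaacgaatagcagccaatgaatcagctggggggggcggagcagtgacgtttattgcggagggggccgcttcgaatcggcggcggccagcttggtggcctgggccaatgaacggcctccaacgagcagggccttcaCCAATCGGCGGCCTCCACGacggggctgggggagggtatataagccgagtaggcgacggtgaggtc
The median change was 0.35 over the 5 members with the element and 0.40 over the 15 without it.

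The lists of other stress pathways showed other counts. ATF4 and CHOP stress genes fell in 13 of 23 cases and rose in 7 (median -0.15). DDIT3, which encodes CHOP, went from 96.7, 83.3 and 95.01 CPM to 210, 183 and 217 CPM (1.15, SE 0.040), and SESN3 rose by 2.11. CTH, an enzyme of cysteine synthesis, went from 16.3, 18.9 and 18.9 CPM to 7.42, 9.77 and 8.93 CPM (-1.05, SE 0.086), and asparagine synthetase ASNS (-0.47) and DDIT4 fell. Each of these genes had separate groups. Among heat shock genes 6 of 20 rose, HSPB1 (1.05), HSPA1B (1.05), DNAJB1 (0.48) and DNAJA1 (0.43) among them, and 8 fell (median -0.05), HSP90AB1 (-0.29) among them. The groups of DNAJA1 overlapped, and without DMSO replicate 1 the falls numbered 5. HSPA1A and HSPA1B are near-identical copies whose reads may be split between them, so the value of HSPA1B is uncertain.

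Interferon-stimulated genes split. Of 37 tested, 20 rose (54.1%, beside 21.6% of all genes) and 6 fell (16.2%, beside 22.8% of all genes), with a median of 0.27. CMPK2 went from 1.33, 1.15 and 1.17 CPM to 12.6, 9.61 and 12.7 CPM (3.25, SE 0.154), OAS1, which makes the activator of RNase L, from 19.2, 17.7 and 19.98 CPM to 57.8, 54.1 and 56.8 CPM (1.57, SE 0.056), and IFI6 from 36.0, 33.7 and 29.8 CPM to 65.6, 61.8 and 60.8 CPM (0.92, SE 0.053). OAS3 rose by 0.60. In the other direction, OASL went from 19.9, 14.6 and 15.9 CPM to 7.65, 6.31 and 6.79 CPM (-1.28, SE 0.092) and XAF1 from 105, 107 and 107 CPM to 60.8, 60.1 and 60.7 CPM (-0.81, SE 0.044). None of these genes had overlapping groups. The falls numbered 3 with DESeq2 and without replicate 1 or 3 of both groups, and 2 without DMSO replicate 3 or TAK-981 replicate 1. The letters of the interferon response element, GAAA repeated after 2 further bases, on either strand, stood in the 250 bases before 18 of the 29 members with a promoter (62.1%; 3.34% of tested genes, 3.71% of all genes). Of the 18 members with them 10 rose (median 0.27) and of the 11 without 6 rose (median 0.21). The promoter of IFI6 (chr1:27672193-27672442, minus strand, GRCh38.p14, RefSeq) is shown for its 3 matches, in capitals.
IFI6: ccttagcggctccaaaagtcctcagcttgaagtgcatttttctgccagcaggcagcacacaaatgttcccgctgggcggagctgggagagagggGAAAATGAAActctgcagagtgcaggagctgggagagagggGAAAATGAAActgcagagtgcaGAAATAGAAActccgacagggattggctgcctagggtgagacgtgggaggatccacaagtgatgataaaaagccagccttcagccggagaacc
That promoter belongs to a gene that rose by 0.92.

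MHC class I presentation genes rose in 17 of 20 cases (85.0%) and 0 fell (median 0.31). B2M, the light chain of the class I molecule, went from 1379, 1366 and 1444 CPM to 1929, 1892 and 1980 CPM (0.47, SE 0.034), and ERAP2, which trims peptides, from 76.6, 81.3 and 85.0 CPM to 120, 119 and 121 CPM (0.57, SE 0.044). The groups were separate in both. HLA-B (0.52), TAPBP (0.48) and CALR (0.46) rose, and the HLA genes are near-identical to each other, so that reads may be split between them. CALR is also a chaperone of the endoplasmic reticulum. Of the 8 interferon and chemokine genes that passed the filter, out of 20 listed, 5 rose and 1 fell (median 0.58). CXCL1 (1.27), CXCL3 (1.25), CCL20 (1.21) and IL8 (0.65) are neutrophil or lymphocyte attractants, all at 12.6 CPM or less in DMSO, and LIF fell by 0.76. In the NF-kB and inflammation list 2 of 20 rose and 7 fell (median 0.01): NFKBIZ went from 41.7, 57.9 and 47.0 CPM to 25.5, 34.7 and 29.9 CPM (-0.70, SE 0.053), and IRAK2 (-0.78), ZC3H12A (-0.59) and NFKB1 (-0.43) fell, while TNFAIP3 rose (0.39). The rises numbered 1 with DESeq2 and without TAK-981 replicate 3 or replicate 1 or 3 of both groups, and 4 without replicate 2 of both groups.

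Genes of the intestinal epithelium moved in both directions. Of 24 enterocyte and colonocyte genes 9 rose and 7 fell (median 0.03). At least 2-fold, 6 of them rose and 1 fell, beside 2.95% and 1.22% of all genes. CDX2, a master transcription factor of the intestine, went from 0.767, 0.691 and 0.632 CPM to 4.64, 3.46 and 3.56 CPM (2.46, SE 0.230) and the differentiation keratin KRT20 from 2.81, 2.62 and 2.67 CPM to 9.92, 8.95 and 12.3 CPM (1.93, SE 0.139). The intestinal surface antigen GPA33 went from 292, 278 and 285 CPM to 191, 180 and 189 CPM (-0.61, SE 0.037), and VDR, the vitamin D receptor, from 23.2, 21.7 and 21.8 CPM to 10.8, 10.3 and 9.57 CPM (-1.12, SE 0.077). LGALS4 fell by 0.40. The 4 genes given by library had separate groups. CDX2 and KRT20 stayed far below KRT8 per length, at 1.65 and 5.94 FPKM with TAK-981 against 1980 FPKM.

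Goblet and secretory genes rose in 7 of 18 cases and fell in 3 (median 0.10). AGR2, a disulphide isomerase of mucus-producing cells, went from 178, 169 and 179 CPM to 382, 367 and 393 CPM (1.12, SE 0.037), and KLF4 (0.92) and the mucin MUC13 (0.56) rose. SPDEF, a transcription factor of goblet cells, went from 14.1, 10.6 and 11.5 CPM to 3.52, 3.02 and 3.12 CPM (-1.90, SE 0.120), and the gel-forming mucin MUC5B fell by 0.60. These groups did not overlap. The intestinal stem cell and WNT target list was even, with 8 rises and 8 falls among 20 genes (median 0.00180). SMOC2, a secreted protein of crypt base cells, went from 149, 126 and 140 CPM to 46.4, 47.2 and 46.0 CPM (-1.57, SE 0.052), and CD44 and TCF7 (-0.55) fell with it. LGR5, the receptor that marks intestinal stem cells, went from 35.7, 34.5 and 32.5 CPM to 55.5, 51.9 and 57.1 CPM (0.68, SE 0.056), and EPHB3 rose by 1.19. Xenobiotic metabolism and transport genes rose in 11 of 26 cases and fell in 5 (median 0.24), with DHRS2, AHRR (1.63), the aryl hydrocarbon receptor AHR (0.60) and ALDH1A1 (0.56) among the rises and UGT1A1 (-0.39), whose exons are shared with other genes of its locus, among the falls. The falls in that list numbered 3 without TAK-981 replicate 3 and without replicate 3 of both groups.

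Transcription factor families showed large changes of single members rather than a common direction. In the MAPK feedback and immediate early list 11 of 28 rose and 7 fell (median 0.01). FOSB went from 14.98, 16.3 and 14.5 CPM to 39.1, 47.8 and 48.9 CPM (1.57, SE 0.069), and FOS (0.99), JUN (0.96) and ATF3 (0.76) rose, while PHLDA1 fell by 0.47. Of 13 KLF genes 5 rose and 5 fell (median 0.10). KLF11 went from 9.72, 10.0 and 9.87 CPM to 37.7, 43.8 and 36.0 CPM (1.99, SE 0.071), and KLF2 (-0.83) and KLF5 (-0.45) fell. The rises among KLF genes numbered 3 with DESeq2, without the block, without DMSO replicate 1 or 3, without TAK-981 replicate 2 or 3 and without replicate 3 of both groups. Among 19 nuclear receptors 7 rose, RARG (0.52) among them, and 3 fell, NR1H3, the oxysterol receptor LXR alpha (-0.64), among them (median 0.07). The rises numbered 2 with DESeq2, 3 on FPKM values or without replicate 1 of both groups, and 4 without replicate 3 of both groups, DMSO replicate 3 or TAK-981 replicate 1.

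Signalling and survival lists were mixed too. BMP and TGF-beta feedback genes rose in 7 and fell in 7 of 18 cases (median -0.00313): BMP4 went from 266, 261 and 262 CPM to 688, 667 and 687 CPM (1.37, SE 0.036) and TGFBI from 273, 278 and 262 CPM to 125, 131 and 122 CPM (-1.11, SE 0.038), both with separate groups. Falls there numbered 4 with DESeq2, without DMSO replicate 3, without TAK-981 replicate 3 and without replicate 3 of both groups. Notch pathway genes fell in 7 of 16 cases and rose in 3 (median -0.15), with HEY1 (-0.87), LFNG (-0.45) and NOTCH2 (-0.39) falling and NRARP and NOTCH3 (0.45) rising; without TAK-981 replicate 3 the falls numbered 4. In the BCL2 family 4 of 14 rose, BMF (1.45), PMAIP1 (0.38) and BCL2L11 (0.35) among them. The other direction held 6 falls, BID (-0.29) and BCL2L1 (-0.17) among them (median of the list 0.04). The falls of that family numbered 2 with DESeq2, without replicate 1 of both groups, DMSO replicate 3 or TAK-981 replicate 1, and 3 without replicate 3 of both groups, DMSO replicate 1 or TAK-981 replicate 3.

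Iron, redox and oxygen genes followed no single direction. In the NRF2, heme and iron list 7 of 23 rose and 8 fell (median -0.02). HMOX1, heme oxygenase 1, went from 16.8, 14.2 and 14.6 CPM to 3.85, 3.35 and 4.25 CPM (-1.99, SE 0.112). FTH1, the heavy chain of the iron store ferritin, went from 2151, 1858 and 1962 CPM to 2912, 2921 and 3036 CPM (0.57, SE 0.042), and the transferrin receptor TFRC from 2005, 1934 and 2004 CPM to 1411, 1255 and 1394 CPM (-0.55, SE 0.036). None of these had overlapping groups. The rises numbered 4 with DESeq2, without replicate 3 of both groups, and without any single library except DMSO replicate 1. Hypoxia and glycolysis genes rose in 8 of 22 cases and fell in 7 (median 0.04): CA9 (-1.07) and the glucose transporter SLC2A1 (-0.79) fell, and ADM (0.90), KDM3A (0.76) and EGLN3 (0.70) rose.

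Silencing factors of heterochromatin changed little as a list, with 6 rises and 4 falls among 27 genes (median 0.01). ATF7IP, the partner of the histone methyltransferase SETDB1, stood apart: it went from 41.3, 45.2 and 42.5 CPM to 111, 106 and 101 CPM (1.30, SE 0.051). ZNF274 (0.59), FAM208A (TASOR, 0.28) and MAX (0.24) rose and CBX3 fell (-0.23). The falls numbered 2 on FPKM values and without DMSO replicate 1 or 3, TAK-981 replicate 2 or 3, or replicate 1 of both groups. Of 28 germline genes 7 passed the filter, which low genes could do through the treated libraries alone, and 4 of these rose. PIWIL1, which binds small RNAs of the germline, was expressed without treatment at 220, 220 and 225 CPM and stood at 325, 286 and 301 CPM with TAK-981 (0.45, SE 0.042). ACTL8 was at 0.0511, 0.0460 and 0 CPM in DMSO and 0.649, 0.714 and 1.12 CPM with TAK-981, and ZSCAN4, a gene of the early embryo, at 0.102, 0 and 0.0486 CPM and 0.649, 0.494 and 0.879 CPM. Keratin and junction genes rose in 7 of 28 cases and fell in 6 (median -0.02), with CLDN2 (-1.27), PKP2 (-0.46) and TJP1 (-0.41) falling and KRT80 (0.34) and CLDN4 (0.27) rising. Of 15 mitochondrially encoded genes 12 rose and 1 fell, by small amounts (median 0.13, highest 0.24). That count was 6 with the ML-792 libraries in the fit, on FPKM values, or without DMSO replicate 2 or TAK-981 replicate 3, 5 without TAK-981 replicate 1, 4 without DMSO replicate 3 and 7 without replicate 3 of both groups. The number of falls ranged from 0 to 2 over the alternatives.

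Among the marker lists of other cell types, few genes were measured. CD14 (1.04, from 1.10 CPM in DMSO) and CD68 (0.13) rose and LYZ fell (-0.13). CD68 lost its call without DMSO replicate 2 or 3, TAK-981 replicate 3 or replicate 3 of both groups, LYZ without DMSO replicate 1 or 3 or TAK-981 replicate 2, and CD14 with DESeq2. LUM (1.53) and COL1A1 (0.86) rose at 1.49 CPM or less in DMSO, and COL1A1 lost its call with DESeq2. PDGFRB, the other fibroblast and mesenchymal marker tested, was not called (-0.60, 70 counts over the DMSO libraries and 45 over the TAK-981 libraries). The summed level of the 8 fibroblast and mesenchymal markers was 0.899 to 1.01 FPKM in DMSO and 1.81 to 2.25 FPKM with TAK-981, with 4 of the 8 at 0 counts. The neuronal marker SYT1 rose by 1.10 from 18.3 CPM, with SNAP25 and STMN2 at 0 counts, and the melanocyte marker PMEL was not called (-0.28). The 12 epithelial markers summed to 4690 to 5020 FPKM in DMSO and 5010 to 5060 FPKM with TAK-981.

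The response of Colo205 was set against those of the other human carcinoma lines by testing the difference of the responses itself, in 18 libraries and 16355 genes. Against HCT116, the other colorectal line, 1338 genes responded more positively in Colo205 (8.18%) and 1120 more negatively (6.85%). Against MDA-MB-231 the numbers were 1150 (7.03%) and 909 (5.56%). ENTPD8 was among the largest differences of the first direction in both: it stood at 1.07 CPM in DMSO and 1.52 CPM with TAK-981 in HCT116, and at 0.235 and 0.168 CPM in MDA-MB-231, so that its response in Colo205 exceeded theirs by 6.03 (SE 0.328, adjusted p = 3.233e-11) and 7.05 (SE 0.679, adjusted p = 2.374e-07). ADIRF reached 28.6 CPM in treated Colo205 cells, while HCT116 held 103 CPM without and 114 CPM with TAK-981, and the response exceeded that of HCT116 by 4.87 (SE 0.179). PNPLA7 (4.31 over HCT116, 4.06 over MDA-MB-231) and RHOBTB1 (3.89 and 3.98) differed in both comparisons.

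CREB3L3, the lipid-linked transcription factor, was at 0.974 CPM in DMSO and 0.706 CPM with TAK-981 in HCT116, and the response of Colo205 exceeded it by 6.11 (SE 0.369). PDK4 rose in HCT116 too (0.83, from 2.40 to 4.28 CPM), by 3.77 less than in Colo205 (SE 0.207). HAS2 fell in MDA-MB-231 (-1.06, from 21.5 to 10.4 CPM) and rose in Colo205, a difference of 3.43 (SE 0.208).

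In the opposite direction, RUNX3 rose in HCT116 (0.37, from 38.4 to 49.8 CPM) and fell in Colo205 (-1.90), a difference of -2.27 (SE 0.171). OASL differed by -1.85 (SE 0.212; 1.86 to 2.77 CPM in HCT116). ASMTL rose in both colorectal lines, by 0.96 in Colo205 and by 2.81 in HCT116. GDF15, a stress cytokine, rose by 0.71 in Colo205 from 184 CPM and by 3.68 in MDA-MB-231 from 1.63 CPM, a difference of -2.96 (SE 0.223). SPDEF, TGFBI and AKR1B10 against HCT116, and AKR1B10, GCOM1, IQGAP2, MLXIPL and UNC5B against MDA-MB-231, were also among the largest. However, the group means of these genes in the other line were no more than 2.11 CPM.

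**Figure D5:**
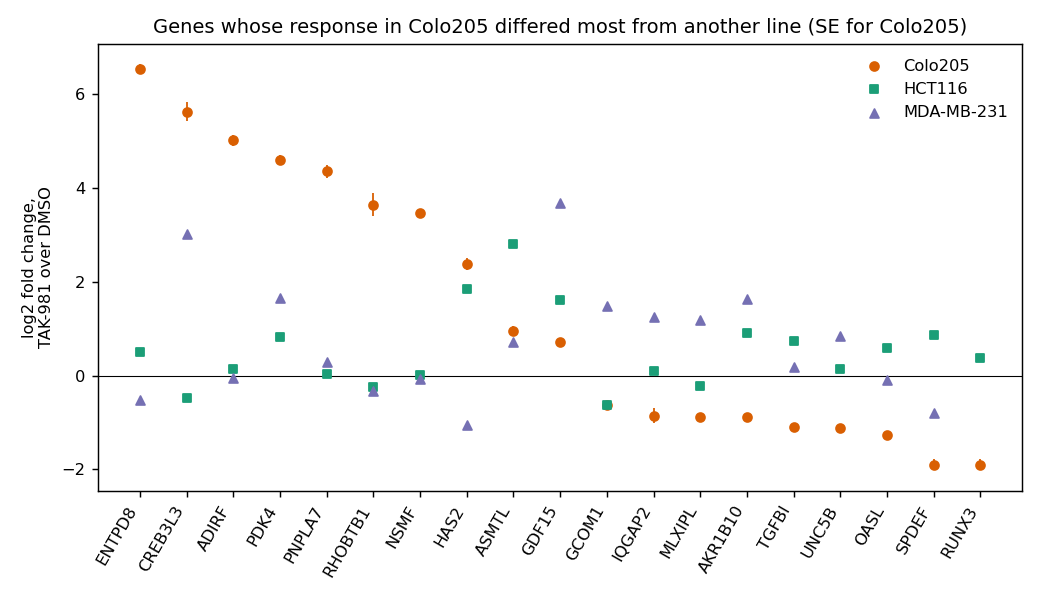
Points give the log2 fold change with TAK-981 in Colo205 (circles, with SE), HCT116 (squares) and MDA-MB-231 (triangles) for the genes whose response in Colo205 differed most from another line; a value is left out where a group of the other line held 3 counts or fewer. ENTPD8, CREB3L3, ADIRF and PNPLA7 are over 4 in Colo205, and GDF15 is higher in MDA-MB-231 (3.68) than in Colo205 (0.71).

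ML-792, the other inhibitor, was measured against the same DMSO libraries of Colo205, so its values stand beside those of TAK-981 as a description. It gave 6.59 for ENTPD8, 5.56 for CREB3L3, 5.10 for ADIRF, 4.57 for PDK4, 3.55 for NSMF and 3.18 for PLIN2, and -2.83 for PTGIS, -2.19 for CACNA1E, -1.61 for PRR9, -1.44 for FERMT1 and -1.17 for CD44. The SUMO genes stood at 0.85 for SUMO3 and 0.70 for SUMO2. CTH was at -1.75 with ML-792 and -1.05 with TAK-981, IL8 at 0.13 and 0.65, and LFNG at -0.08 and -0.45, differences that were not tested here. Over all 14152 genes tested with ML-792, 24.2% rose and 24.4% fell. With ML-792 29 of 34 mitosis genes rose, 27 of 34 ribosome biogenesis genes fell, and 18 of 25 cholesterol synthesis genes rose.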

How the data were processed

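RNA-seq of poly(A) RNA was made with a TruSeq kit and paired-end sequencing, per the labels' protocols; no source used here gives the aligner, counter, strand setting, genome build or annotation (not stated). Per the file headers, the authors deposited expected counts (not always whole) and FPKM per gene for each library. Of a library's counts, 21.9 to 23.4% lay in genes whose value was not whole. FPKM served for levels between genes and 1 alternative.

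Expected counts were rounded. edgeR 4.0.16 (R 4.3.3) fitted the 6 Colo205 libraries with filterByExpr (minimum count 10, total 15), TMM, the replicate number as block and the quasi-likelihood F-test; adjusted p is Benjamini-Hochberg over all genes tested, and changes are log2 fold changes with their SE. Differences between lines were tested as interactions in 18 libraries without a block. Calls within HCT116 or MDA-MB-231 came from that same fit, and list members counted there were those that passed the filter in Colo205. ML-792 came from a blocked fit of 9 libraries. The fits were run on simulated counts with far fewer changed genes than were called here. That run does not give the error rate in these data. Gene lists (844 memberships, all matched, 3 by older symbol and 15 by Ensembl identifier) and the members were chosen with earlier results of these data known.

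The text names the 25 largest rises and the 25 largest falls (called, separate groups, 5 CPM or more in 1 group), up to 8 each way with a mean of at least 100 CPM, up to 5 members per list with the smallest adjusted p, SAE1, UBA2, and up to 6 genes each way per line difference; 6 clone-named, predicted or read-through genes were skipped, and so were genes with 3 counts or fewer in a group of a line. Other genes were named after their values were seen, and a few genes that the rule picks are not reported here. Alternatives were no block, ML-792 libraries added, RLE factors, DESeq2 1.42.0, no filter, limma 3.58.1 on log2(FPKM + 0.1), and leaving out replicates.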

Additional observations from a re-analysis of the deposited data

Results flagged for a closer look

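The difference between the response of Colo205 and that of another line passed the test for the genes below, with values as log2 differences (Colo205 minus the other line). Against HCT116 the response was higher for CREB3L3 (6.11), ENTPD8 (6.03), ADIRF (4.87), PNPLA7 (4.31), RHOBTB1 (3.89) and PDK4 (3.77). It was lower for SPDEF (-2.77), RUNX3 (-2.27), ASMTL (-1.87), OASL (-1.85), TGFBI (-1.85) and AKR1B10 (-1.80). Against MDA-MB-231 it was higher for ENTPD8 (7.05), ADIRF (5.06), PNPLA7 (4.06), RHOBTB1 (3.98), NSMF (3.54) and HAS2 (3.43). It was lower for GDF15 (-2.96), AKR1B10 (-2.52), GCOM1 (-2.12), IQGAP2 (-2.11), MLXIPL (-2.05) and UNC5B (-1.93). TGFBI had the largest adjusted p of the 24 (0.0375, SE 0.522), with 0.107 CPM in HCT116 without treatment against 275 CPM in Colo205. OPRK1, which rose in Colo205 from 5 counts over the 3 DMSO libraries to 556 over the 3 TAK-981 libraries, held 2 and 0 counts in HCT116 and 1 and 0 in MDA-MB-231, so that no difference is given. Groups of 3 libraries were not tested for single outlying values.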

How the results depend on the processing

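The counts of called genes moved by over 1.5 times under DESeq2 alone, to 1848 rises and 1917 falls, all of them also called with edgeR. Leaving out replicates gave 2242 to 3154 rises and 2289 to 3300 falls, and 370 to 462 rises and 154 to 186 falls of at least 2-fold. Without the replicate block 2809 rises and 2887 falls were called, 2787 and 2879 of them shared with the blocked fit. Same-numbered DMSO and TAK-981 libraries deviated together with correlations of 0.173, 0.0963 and 0.0597 over genes, against -0.145 to 0.0501 for other pairs; 2 of 3 were under the threshold of 0.1 for taking the numbers as pairs, and the block was kept as the design of this comparison. Of 216 called genes named here none changed sign in 15 alternatives, and 11 lost the call in at least 1 (36 of 3240 refits). The mitochondrial share differed by 0.527 to 0.694 points without 1 replicate pair. Counts of the line differences stayed within 1.5 times in every alternative run. Below about 1 CPM the depth of 18229679 to 21537052 counts left few counts per library, and 6 of the 25 largest rises started from such a mean level in DMSO.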

Other observations

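Other gene families were chosen after their values were seen and not tested as sets, and their counts stand beside the 21.6% of all genes that rose and the 22.8% that fell. Of 419 ZNF zinc finger genes 161 rose (38.4%) and 26 fell (6.21%), with a median of 0.19. Of 20 cytosolic aminoacyl-tRNA synthetase genes, which charge tRNAs with amino acids, 16 fell and 0 rose (median -0.23). Of 14 small nucleolar RNA host genes 9 fell and 0 rose (median -0.26), and of 78 mitochondrial ribosomal protein genes 38 fell and 4 rose (median -0.13). The 82 cytosolic ribosomal protein genes gave 5 falls and 1 rise (median -0.03). Of 49 genes of Sec, coat and p24 transport proteins 22 rose and 1 fell (median 0.13). Of 232 SLC transporter genes 46 rose and 64 fell (median -0.03), of 5 metallothionein genes 0 rose and 3 fell (median -0.72), and of 3 olfactory receptor genes 1 rose and 1 fell.

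Some rises of at least 2-fold had a neighbour of the same kind. Of the 366 that could be placed in the RefSeq order, 60 (16.4%) had an adjacent tested gene that also rose by at least 2-fold, against 712 of all 12754 placed genes (5.58%). The 410 rises of that size include 89 genes with under 10 counts in every DMSO library, which passed the filter through the treated libraries. Among 144 placed falls of that size 9 had such a neighbour (6.25%), against 285 of all placed genes (2.23%). Runs of 3 adjacent 2-fold rises were found at 6 places, among them ENTPD8, NSMF and PNPLA7 on chromosome 9, TCHH, HRNR and FLG, genes of the epidermal differentiation complex on chromosome 1 (1.66 to 2.56), and COLEC11, CMPK2 and RNF144A on chromosome 2 (1.24 to 4.51). The other runs were NID1, GPR137B and ERO1LB on chromosome 1, MRGPRG, MRGPRG-AS1 and MRGPRE on chromosome 11, and RNF103-CHMP3, RNF103 and RMND5A on chromosome 2. By their names MRGPRG-AS1 is an antisense gene and RNF103-CHMP3 a read-through gene of a neighbour in the run. Such genes were not removed from these counts. Counting by strand is not stated, and overlapping or read-through transcripts were not told apart.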
